A study of Mus musculus with 16 samples.

Results

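Chemokines and their receptors are described here for the left ventricle of a mouse model of heart failure, as 43 genes of the 36950 in the deposited matrix. The members were fixed by name and their rule used no measured value, but earlier results of these data were known when they were chosen. They are 31 ligands, 10 signalling receptors and 2 atypical receptors. All 43 have a row in the matrix, and 31 had a UMI (a unique molecular identifier, which marks 1 captured RNA molecule) in at least 5% of the cells of 1 or more cell types. The other 12 (Ccl17, Ccl22, Ccl25, Ccl27a, Cxcl5, Cxcl11, Xcl1, Ccr3, Ccr6, Cxcr3, Cxcr6 and Ackr2) stayed under that share in every type.

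The cells came from male mice with transverse aortic constriction (TAC), in which the aorta is narrowed by surgery so that the left ventricle pumps against a raised pressure. The labels name 5 disease stages in weeks, of which 0w, 2w and 11w have 2 mice each, 8w has 3 and 5w has 7. They give no strain, age or genotype, and do not say whether the 0w mice had an operation, so 0w serves only as the first stage. The authors' annotation names the cells CM (5656 cardiomyocytes), EC (1858 endothelial cells), FB (1775 fibroblasts), MP (1413 macrophages), T (606 T cells) and GN (181 cells, not spelled out in the labels).

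Chemokines are small secreted proteins that draw cells along a gradient by binding G protein-coupled receptors, and they are grouped by the spacing of their first cysteines into CC, CXC, CX3C and XC families. Inflammatory members, such as Ccl2 and Cxcl1, are switched on in stressed or infected tissue and bring in monocytes and neutrophils. Homeostatic members, such as Cxcl12 and Ccl21a, keep leukocytes and progenitors in place or guide them through lymphatic vessels, and atypical receptors take up ligands without the usual signal. In the loaded heart this family is best known for the entry of Ccr2-positive monocytes toward Ccl2.

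The promoters of 4 CXC ligands that sit near each other on chromosome 5 are shown because the results separate them by source: Cxcl1 had its highest level in FB, Cxcl2 in GN and MP, Cxcl9 in EC and Cxcl10 in MP. Each stretch is the 250 bases before the RefSeq start (GRCm38.p6), 5′ to 3′ on the strand of the gene, with Cxcl1 and Cxcl2 on the plus strand and Cxcl9 and Cxcl10 on the minus strand. Capitals mark a match, on either strand, to GGGNNTTTCC (a form of the site bound by NF-kappaB, the main switch of inflammatory genes) or to GAAANNGAAA (a form of the interferon-stimulated response element). No 2 matches overlap.
Cxcl1, chr5:90890995-90891244: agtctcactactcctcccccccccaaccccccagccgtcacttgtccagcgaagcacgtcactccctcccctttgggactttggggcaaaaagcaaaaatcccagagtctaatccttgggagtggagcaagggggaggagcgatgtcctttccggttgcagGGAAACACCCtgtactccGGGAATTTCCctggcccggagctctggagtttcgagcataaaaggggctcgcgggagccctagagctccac
Cxcl2, chr5:90903649-90903898: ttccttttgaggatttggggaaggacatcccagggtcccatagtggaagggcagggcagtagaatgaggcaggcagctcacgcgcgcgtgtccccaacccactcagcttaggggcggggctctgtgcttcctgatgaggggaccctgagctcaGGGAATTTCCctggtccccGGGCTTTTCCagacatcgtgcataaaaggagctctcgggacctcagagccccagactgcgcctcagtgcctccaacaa
Cxcl9, chr5:92328080-92328329: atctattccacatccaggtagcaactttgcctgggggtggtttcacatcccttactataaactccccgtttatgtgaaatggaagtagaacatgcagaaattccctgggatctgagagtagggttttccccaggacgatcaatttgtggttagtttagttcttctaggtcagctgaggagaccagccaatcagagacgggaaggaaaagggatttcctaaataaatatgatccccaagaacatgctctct
Cxcl10, chr5:92348890-92349139: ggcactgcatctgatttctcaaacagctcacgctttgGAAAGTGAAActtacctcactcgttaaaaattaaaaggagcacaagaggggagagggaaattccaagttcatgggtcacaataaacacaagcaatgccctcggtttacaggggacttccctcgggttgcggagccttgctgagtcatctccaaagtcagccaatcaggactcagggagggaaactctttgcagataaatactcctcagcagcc
Counted from the start, the Cxcl1 stretch matched GGGNNTTTCC on its own strand from -71 to -62 and on the other strand from -89 to -80. In the Cxcl2 stretch the matches lay from -97 to -88 and from -78 to -69. The Cxcl10 stretch matched GAAANNGAAA from -213 to -204, and the Cxcl9 stretch held neither form. RefSeq promoters were found for 33 of the 43 members (37 promoters). GGGNNTTTCC was present in 5 of these 37, those of Ccl9, Ccr3, Cxcl1, Cxcl2 and Cxcl3, and in 1.41% of all 32851 promoters. GAAANNGAAA was present in 3, those of Ccl19, Cxcl10 and Cxcl14, and in 2.98% of all. A match is a description of the letters and was not tied to binding here. Other forms of either site were not searched, so a stretch without a match may still hold one.

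Levels are UMIs of a gene per 1000000 non-mitochondrial UMIs (CPM), summed per mouse and type over mice with at least 10 cells of the type, and are compared within a gene across cell types. Because the authors' types were clustered from the same counts, differences between types and subclusters are given as a description with no test. By mean level over mice, 16 members were highest in MP, 9 in FB, 9 in T, 6 in GN and 3 in EC, and none in CM. The same leading type was found for 37 of the 43 when all UMIs were the denominator, and for 39 when shares of cells were taken after thinning each cell to 2000 UMIs. The 6 libraries of GN cells were small, with 10 to 40 cells each.

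**Figure D1:**
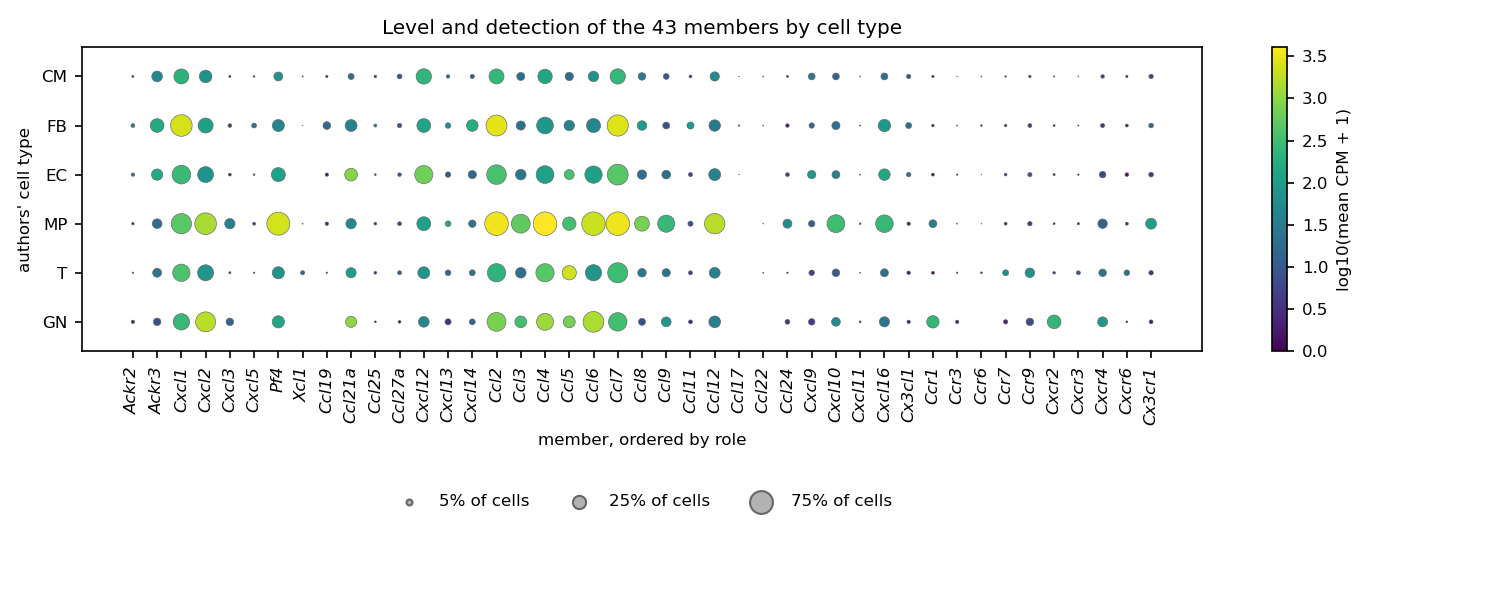
Mean level over mice (colour, log10 of CPM + 1) and share of cells with a UMI (area of the circle) of the 43 members in the 6 annotated types, ordered by role. The largest circle of a member lies in MP for 15 members, in FB for 10, in T for 8, in GN for 6, in EC for 3 and in CM for 1, and Cxcl12 is brightest in EC (682 CPM) and Ccl5 in T (2186 CPM).

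The type abbreviations fit their markers: 7 fibroblast markers came to 14385 to 23902 CPM in FB and at most 6151 CPM elsewhere, and 7 endothelial markers to 3147 to 11927 CPM in EC and at most 5301 CPM elsewhere. Markers of other types entered each type's sums as well. The 7 cardiomyocyte markers came to 429 to 47372 CPM in MP and to 10479 to 66898 CPM in CM, and the 7 macrophage markers to 66.0 to 2494 CPM in CM and to 7740 to 17585 CPM in MP. The 8 T cell markers came to 38.6 CPM in T of 8w replicate 3 (13 cells), against 378 to 7361 CPM in the other T sums, so that library went against its label. In T of that mouse the ligand Ccl5 was at 419 CPM. GN cells had 5500 to 60622 CPM of the 7 granulocyte markers, against at most 1219 CPM in the other types. The cell names place the cells on 12 plates, lettered A to L here by stage, and only plate H held 2 stages (5w replicate 1 and 8w replicate 1). No cell name was shared between mice.

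Among the inflammatory CC ligands, Ccl2 and Ccl7, which call monocytes through the receptor Ccr2, had 2 main sources. Ccl2 averaged 3454 ± 2318 CPM in MP (SD, n = 16 mice) and 2891 ± 2320 CPM in FB (n = 12), against 254 CPM in CM, 363 CPM in EC and 212 CPM in T. Ccl7 averaged 3314 ± 2536 CPM in MP and 2647 ± 2424 CPM in FB. For both ligands MP and FB differed by less than the spread over mice, and FB led when all UMIs were the denominator. Of the 1413 MP cells, 72 held at least 50% of the Ccl2 UMIs of MP.

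Of the other 11 inflammatory CC ligands, 7 were highest in MP, 2 in FB (Ccl11 and Ccl17) and 2 in T (Ccl5 and Ccl22). Ccl4, which attracts T cells and monocytes, averaged 4076 ± 2715 CPM in MP and 1199 ± 1209 CPM in GN (n = 6). Its relative Ccl3 averaged 540 ± 334 CPM in MP and 340 ± 334 CPM in GN. In the RefSeq annotation the spans of Ccl3 and Ccl4 overlap on chromosome 11, so reads in the overlap may not be assigned to either. Ccl12, a mouse relative of Ccl2, averaged 1655 ± 1324 CPM in MP and at most 50.5 CPM in any other type. Ccl6 averaged 2125 ± 1248 CPM in MP and 1405 ± 956 CPM in GN. Ccl9 averaged 264 ± 148 CPM in MP, and Ccl24, a ligand of the eosinophil receptor Ccr3, averaged 58.7 ± 69.4 CPM. For Ccl8 the mean in MP was 716 ± 819 CPM, with a range of 36.5 to 2861 CPM, so single mice carried much of it.

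Inside MP, the subcluster MP9 (30 cells) had the highest summed Ccl4, at 17685 CPM, and Ccl2, at 8177 CPM, but both rankings rested on 1 cell of 5w replicate 1. That cell held 22339 of the 31964 Ccl4 UMIs and 6805 of the 14780 Ccl2 UMIs of MP9, and also 243 UMIs of the endothelial gene Cdh5. With the top cell of each subcluster left out, MP9 was at 7855 CPM of Ccl4, below MP5 (8580 CPM) and above MP3 (7621 CPM). For Ccl2, MP9 was then at 6508 CPM, below MP8 (6625 CPM) and MP3 (6572 CPM) and above MP5 (6321 CPM). The proliferation gene Birc5 had a UMI in 86.7% of MP9 cells and in 4.70% of other MP. Ccl12 and Ccl7 were highest in MP5 (223 cells), at 5257 and 8831 CPM. Ccl8 was highest in MP4, at 2335 CPM with a UMI in 24.9% of 205 cells.

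Ccl11, an eosinophil attractant also called eotaxin, averaged 89.3 ± 107 CPM in FB and at most 6.42 CPM in any other type. Among subclusters FB4 led at 320 CPM. The macrophage subcluster MP8 (135 cells, 60 of them from 5w replicate 1) was at 110 CPM. MP8 had a Ccl11 UMI in 11.9% of cells, and was at 86.2 CPM without its top cell. Ccl5, which attracts T cells and monocytes, averaged 2186 ± 2718 CPM in T. Its subcluster T4 (90 cells) reached 13068 CPM, against 506 CPM over the other T cells. T4 also led for Xcl1 (73.3 CPM), made by activated cytotoxic T and NK cells, and for the receptors Cxcr6 (155 CPM) and Cxcr3 (59.9 CPM). Of the Cxcr3 UMIs in T, 65.8% came from 1 cell of T4, and of the Cxcr6 UMIs 55.3%.

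One endothelial cell held most of the Ccl5 of its type. It was annotated EC5, came from 2w replicate 2 and had 38357 Ccl5 UMIs, 93.5% of all Ccl5 UMIs in EC, out of 284361 non-mitochondrial UMIs. It also had 394 UMIs of the endothelial gene Cdh5, and 0 of the T cell genes Cd3e and Trac. With it, EC of that mouse stood at 4246 CPM of Ccl5, and without it at 26.2 CPM. Whether it was 1 cell or several was not tested.

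The CXC ligands that attract neutrophils through Cxcr2 came from different cells. Cxcl1 averaged 2357 ± 1627 CPM in FB, with 917 CPM in the lowest of 12 mice, against 470 ± 409 CPM in MP. Inside MP, however, MP8 had Cxcl1 at 3963 CPM with a UMI in 74.8% of cells, near the 4380 CPM of FB4. Cxcl2 averaged 1707 ± 1423 CPM in GN and 1374 ± 559 CPM in MP, against at most 117 CPM in the other types. Cxcl3 averaged 38.1 ± 23.9 CPM in MP and 14.3 CPM in GN, and Cxcl5 averaged 23.1 ± 32.4 CPM in FB. Pf4 (platelet factor 4), which macrophages make as well as platelets, averaged 2320 ± 1001 CPM in MP and at most 140 CPM in any other type.

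The interferon-induced ligands of Cxcr3 were split between vessels and macrophages. Cxcl9 averaged 80.6 ± 110 CPM in EC, 27.3 CPM in CM and 13.5 CPM in MP. By contrast, Cxcl10 averaged 295 ± 191 CPM in MP and 38.7 CPM in EC. Cxcl11 had 70 UMIs in all cells together.

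Of the homeostatic ligands, Cxcl12, which holds Cxcr4-bearing cells in tissue, was highest in EC at 682 ± 493 CPM (n = 13), with 230 ± 149 CPM in CM and 128 ± 116 CPM in FB. EC5 and EC4 led inside EC, at 1363 and 1227 CPM. Cxcl14, a ligand of resident tissue cells, averaged 169 ± 120 CPM in FB and at most 23.1 CPM elsewhere. Ccl19, a ligand of the lymph node receptor Ccr7, averaged 16.3 ± 7.37 CPM in FB and at most 0.935 CPM elsewhere. A row for the human gene symbol CCL19 held another 213 UMIs, against 1449 for Ccl19.

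Ccl21a, the other Ccr7 ligand and a product of lymphatic endothelium, marked 1 subcluster. EC8 (66 cells) had 17354 CPM and a UMI in 97.0% of cells, against 130 CPM and 20.6% over the other EC. EC8 was also high in the lymphatic genes Mmrn1 (3058 against 22.2 CPM), Lyve1 (2371 against 84.4 CPM), Flt4 (913 against 18.9 CPM) and Prox1 (417 against 13.2 CPM). In GN the mean of 1032 CPM rested on few cells, since 97.9% of the Ccl21a UMIs came from 3 cells. Near-identical genes share reads with Ccl21a, so its counts are uncertain. The rows Gm21541 and CCL21A held 3342 and 1419 UMIs against 55139 for Ccl21a, and both were high in EC8 (1000 and 389 CPM).

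Ccl17, Ccl22, Ccl25 and Ccl27a each had a UMI in at most 3.48% of the cells of any type. All 27 UMIs of Ccl22 in T came from 1 cell, and Ccl27a has near-identical copies in the matrix, so its counts are uncertain.

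The membrane-anchored ligands were spread more evenly. Cxcl16 averaged 261 ± 128 CPM in MP, 140 ± 138 CPM in EC and 88.8 ± 23.2 CPM in FB. Cx3cl1 (fractalkine) averaged 22.8 ± 15.8 CPM in EC and 19.3 ± 20.7 CPM in FB, a difference within the spread over mice.

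The receiving cells differed by receptor. Cx3cr1, the fractalkine receptor of monocytes and resident macrophages, averaged 104 ± 137 CPM in MP and at most 13.9 CPM elsewhere. Cxcr2, the neutrophil receptor for Cxcl1 and Cxcl2, averaged 246 ± 286 CPM in GN and at most 1.80 CPM in any other type. Ccr1, a receptor for Ccl3, Ccl5, Ccl6 and Ccl9, averaged 248 ± 247 CPM in GN and 31.97 ± 27.7 CPM in MP. Cxcr4, the receptor for Cxcl12, averaged 88.1 CPM in GN, 23.1 CPM in T and 13.1 CPM in MP. A UMI of Cxcr2 was present in 27.1% of GN cells, with at most 0.99% in any other type. In the 6 GN libraries, Cxcr2 was at 812 CPM in 2w replicate 2, 226 CPM in 5w replicate 2, 118 and 153 CPM in 8w replicates 2 and 3, and 154 and 14.3 CPM in 11w replicates 1 and 2. The value of 2w replicate 2 (10 cells) rested on few cells, since 1 cell of GN0 held 196 UMIs and 1 of GN1 held 144.

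The lymphocyte receptors were highest in T. Ccr7, which guides naive and central memory T cells toward Ccl19 and Ccl21a, averaged 61.1 ± 52.4 CPM in T and at most 1.45 CPM elsewhere, with T3 leading at 227 CPM. Ccr9, a receptor of developing and gut-homing T cells, averaged 68.7 ± 71.3 CPM in T, with T1 leading at 152 CPM. Cxcr6, the Cxcl16 receptor, averaged 22.8 ± 45.5 CPM in T, and Cxcr3 averaged 8.57 ± 13.2 CPM. For Ccr3 and Ccr6 there were 30 and 92 UMIs in all cells together.

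The atypical receptors were stromal. Ackr3, which takes up Cxcl12, averaged 153 ± 97.8 CPM in FB and 151 ± 121 CPM in EC, against 46.9 CPM in CM, and FB and EC differed by less than the spread over mice. Ackr2, a scavenger of inflammatory CC ligands known from lymphatic endothelium, averaged 28.9 ± 60.9 CPM in FB and 12.1 ± 18.3 CPM in EC. EC8 had the highest level, 125 CPM against 2.56 CPM over the other EC, but 1 cell of 11w replicate 2 held 134 of its 246 UMIs. In FB5, at 91.2 CPM, 1 cell held 255 of 296 UMIs. With the top cell of each subcluster left out, EC8 was at 59.1 CPM, above FB2 (26.6 CPM) and FB5 (14.0 CPM).

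Shares of cells with a UMI followed the plate more than the type for several members. Ccl2 was found in 74.3% of the 912 CM on plate A (0w), but in 5.76% and 6.26% of the CM on plates F and G (5w). On plate E (5w replicates 2 and 3), Ccl5 was found in 60.0% of T, 61.1% of EC, 62.5% of FB and 65.1% of MP, while its level there was 1418 CPM in T and 47.6 to 57.7 CPM in the other 3. Cxcl13, a B cell attractant, was found in 20% to 33.3% of every type on plate I (8w) and in 0% of MP, FB and T on plates C and D (2w). Ccr9 was found in 40.0% of T on plate E, and also in 16.7% to 27.0% of the other types there. These shares are given as measured, and the part of free RNA in them was not tested.

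**Figure D2:**
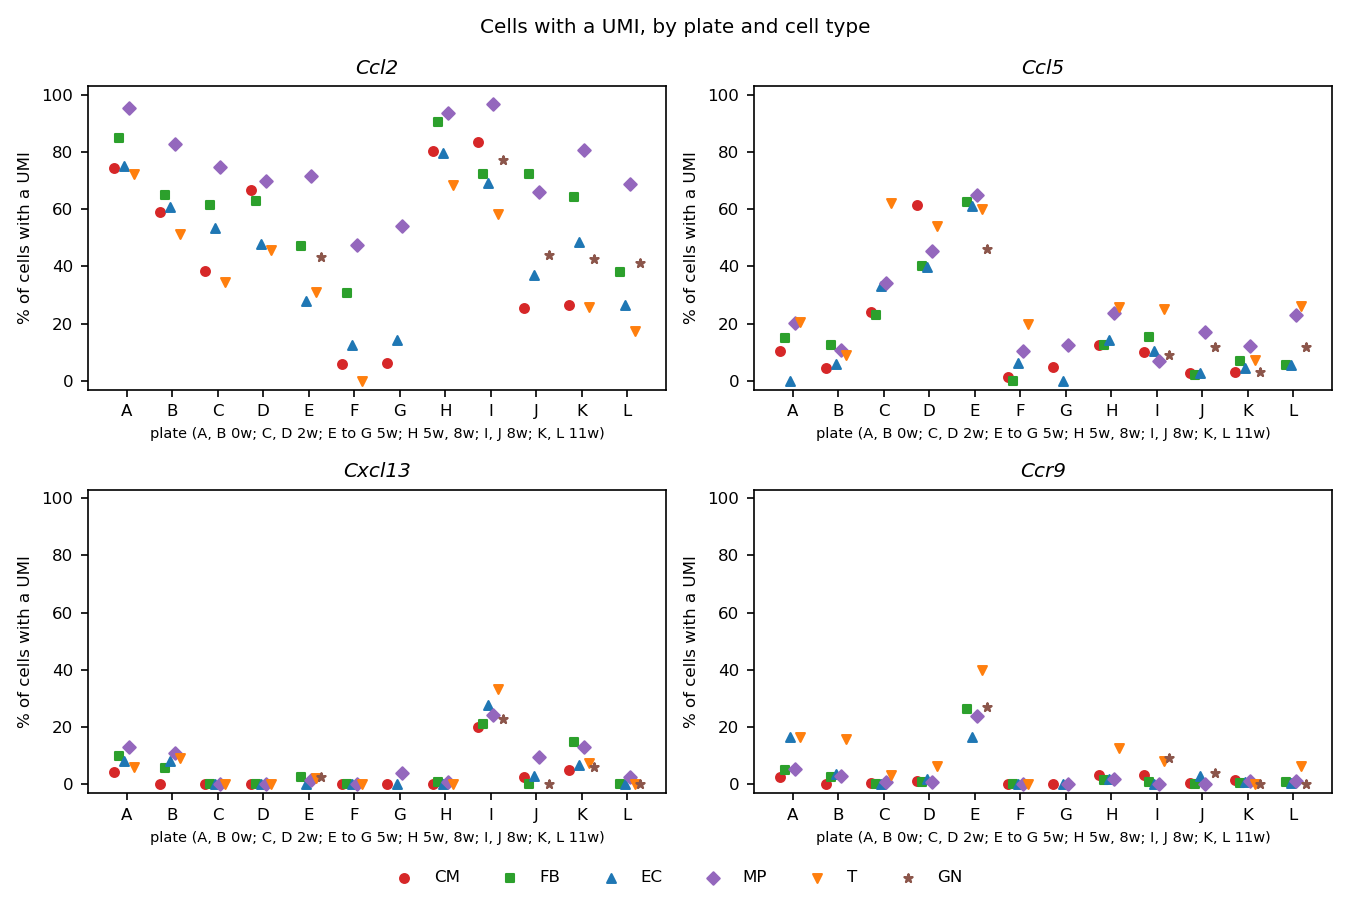
Share of cells with at least 1 UMI of 4 members on each plate (A to L), 1 symbol per annotated type with at least 10 cells on the plate. Types on the same plate move together, as for Ccl5 on plate E (60.0% of T, 65.1% of MP) and Cxcl13 on plate I.

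Cxcl13 averaged 146 ± 247 CPM in MP, its highest type, and was at 0 CPM in 6 of the 16 mice there. It also rested on few cells and on single subclusters. In FB, 1 cell of FB9 from 11w replicate 2 held 71.8% of its UMIs, and in CM 1 cell from 8w replicate 3 held 84.7%. EC3 (44 cells, 43 of them on plate B) had a Cxcl13 UMI in 84.1% of cells and a Ccr9 UMI in 47.7%. EC3 was lower than other EC in Cdh5 (189 against 806 CPM) and Pecam1 (70.0 against 437 CPM), the genes of endothelial junctions, so the label EC holds less firmly there. FB10 (74 cells, 72 of them on plate L) had Cxcl1 at 4954 CPM, of which 1 cell of 5w replicate 1 held 88.1%, and was at 1002 CPM without it.

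Change across stages was tested with edgeR's quasi-likelihood test on the sums per mouse, 1 fit per type and 4 contrasts: 2w, 5w, and 8w with 11w, each against 0w, and 8w with 11w against 5w. The tests covered 35 members in CM, 32 in FB, 31 in MP, 30 in EC and 29 in T. No member passed an adjusted p of 0.05 in any of the 20 contrasts. The share of all genes that passed was 0% in every contrast except 7: 0.764% in EC at 8w and 11w against 0w (111 genes), 0.00688% in EC at 5w against 0w, 0.0778% in FB at 8w and 11w against 0w, and 0.0189% in CM at 8w and 11w against 5w. In T it was 0.0661% at 5w against 0w, 0.00826% at 8w and 11w against 0w and 0.248% at 8w and 11w against 5w. Unadjusted p-values under 0.05 were found for 0 to 9 of the members tested in a contrast. The share of all genes at that cutoff is not given here, so the count is no result about the members. DESeq2 on the same sums called 1 to 3 members in 8 of the 20 contrasts, where it called 0.176% to 4.41% of all genes. In CM it called Ccl11 at 8w and 11w against 0w (0.176% of all genes) and Ccl11, Ccr9 and Cxcr4 against 5w (2.98%), and in EC Ccl5 and Cxcl13 at 2w (0.64%). In FB it called Cx3cr1 at 5w (1.85%) and Ccl21a at 8w and 11w against 0w (2.15%). In T it called Cxcl14 at 2w (0.628%), Ccl21a at 8w and 11w against 0w (0.727%) and Ccr7 and Cxcl13 against 5w (4.41%). The authors' subclusters also differ by stage: CM1 made up 63.7% of CM at 0w and CM11 72.4% at 11w, and T1 led T at 0w (53.0%), T5 at 5w (38.6%) and T3 at 2w, 8w and 11w (44.9% to 53.3%). The 3 contrasts against 0w share the same 2 mice. With 2 mice against 2, full separation of the groups arises often by chance, so such separations below are a description. Fold changes of members are given below only where the unadjusted p was under 0.05. A further condition was at least 100 CPM in the higher group and more than 3 UMIs in each group.

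In macrophages the abundant ligands varied widely among mice, and no contrast of Ccl2, Ccl7, Ccl4 or Pf4 passed. The 2w mice stood apart from the 0w mice for Ccl2, which was lower, and for Pf4, which was higher, and the 11w mice lay above the 0w mice for Ccl7. Ccl2 in MP was at 4189 and 5220 CPM at 0w, 2770 and 1813 CPM at 2w, 2528, 8831 and 2589 CPM at 8w and 4684 and 3429 CPM at 11w. At 5w its lowest, median and highest values were 756, 1917 and 7902 CPM over 7 mice, so every stage overlapped with 5w. Ccl7 at 5w reached 9462 CPM in replicate 1 and 526 CPM in replicate 7, and the 0w mice were at 2513 and 3845 CPM. Ccl7 was at 2674 and 964 CPM at 2w, 2230, 6171 and 1339 CPM at 8w and 5353 and 7007 CPM at 11w. Ccl4 in MP was at 3648 and 6121 CPM at 0w, 5443 and 2649 CPM at 2w, 1714, 5530 and 2076 CPM at 8w and 9133 and 4063 CPM at 11w, with 640 to 9995 CPM at 5w. These ranges overlap across all 5 stages. For Pf4 the values were 1828 and 1298 CPM at 0w, 3151 and 3321 CPM at 2w and 2533 and 1730 CPM at 11w, with 8w replicate 3 lowest at 473 CPM.

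Ccl6, a CC ligand made by myeloid cells, and Ccl8 had the smallest p-values among the macrophage members. Ccl6 in MP was at 5462 and 3037 CPM at 0w, 1957 and 1929 CPM at 2w, and a lowest, median and highest of 680, 1653 and 3505 CPM at 5w. It stood at 3018, 2731 and 753 CPM at 8w and at 2061 and 1290 CPM at 11w. The log2 fold change of 5w against 0w was -1.40 ± 0.51 (SE, adjusted p = 0.591), and the groups overlapped through 5w replicate 1. Ccl8 in MP was at 427 and 470 CPM at 0w, 2861 and 786 CPM at 2w, 145, 670 and 390 CPM at 8w and 1343 and 2329 CPM at 11w. Its range at 5w was 36.5 to 876 CPM, and the fold change of 8w and 11w against 5w was 1.75 ± 0.68 (adjusted p = 0.372), with overlap.

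Ccl9, Ccl24 and Cx3cr1 in MP overlapped between 0w and the 5 mice of 8w and 11w. Ccl9 was at 471 and 247 CPM at 0w, 268 and 148 CPM at 2w, 253, 102 and 151 CPM at 8w and 222 and 219.97 CPM at 11w, and only the 8w mouse at 253 CPM reached the 0w range. Ccl24 was at 26.9 and 74.7 CPM at 0w, 3.64 and 12.7 CPM at 2w, 282, 79.3 and 108 CPM at 8w and 51.1 and 10.2 CPM at 11w. Cx3cr1 was at 76.7 and 37.0 CPM at 0w, 99.8 and 193 CPM at 2w, 9.46, 565 and 0 CPM at 8w and 33.5 and 215 CPM at 11w. The high 8w value was that of replicate 2, and the value of 0 that of replicate 3.

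The receptor Ccr2, which binds Ccl2 and is not among the 43 members, was followed in MP as the receiving side. Ccr2 in MP was at 39.8 and 4.37 CPM at 0w, 98.5 and 28.2 CPM at 2w and 230.5 and 73.7 CPM at 11w. At 8w its mean was 255 ± 136 CPM (n = 3), and at 5w 153 ± 170 CPM (n = 7, 0 to 499 CPM). All 5 mice of 8w and 11w lay above both 0w mice, with a fold change of 3.22 ± 1.28 on the log2 scale that did not pass (adjusted p = 0.525).

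**Figure D3:**
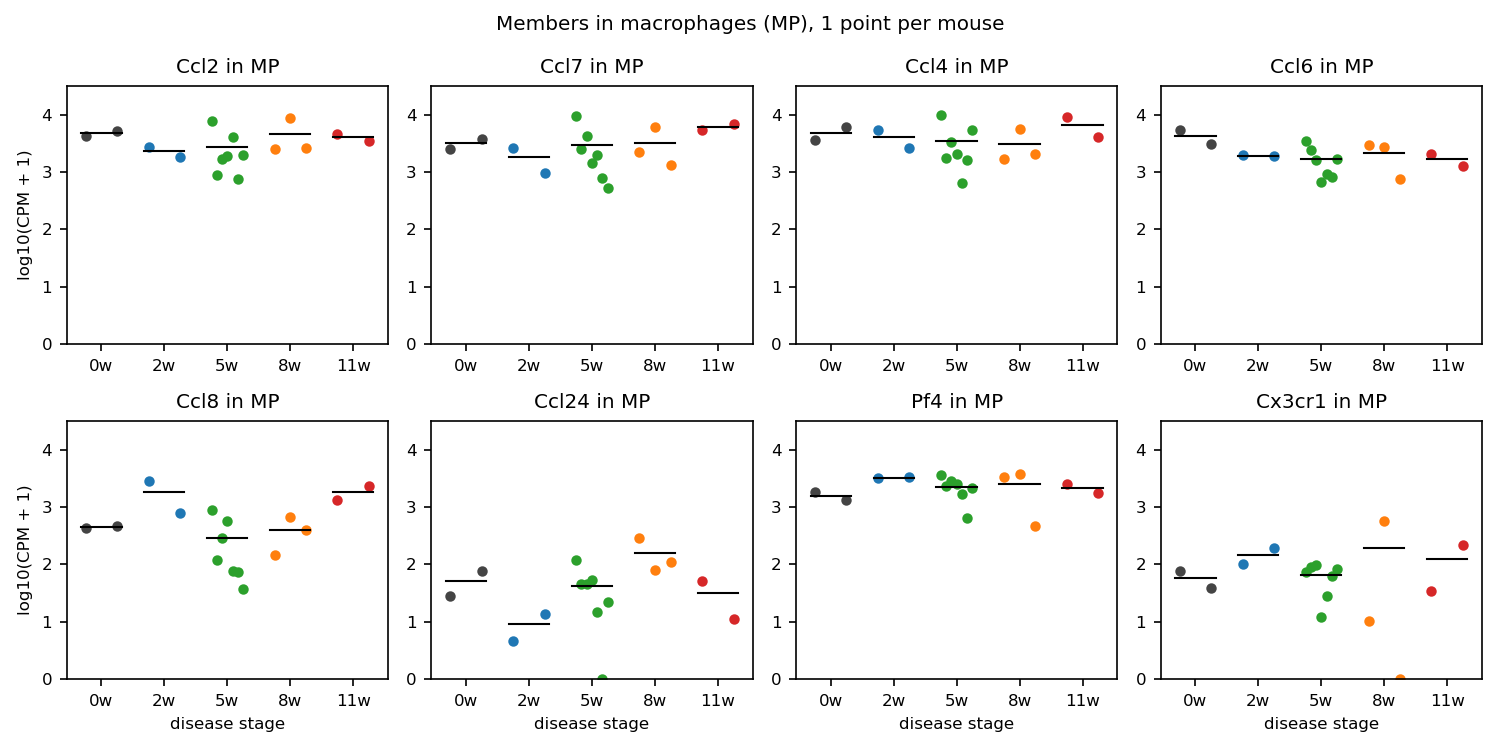
Levels of 8 members in macrophages, 1 point per mouse and a bar at the stage mean, on a log10(CPM + 1) axis against the disease stage. The 7 mice of 5w spread widely, as for Ccl7 (526 to 9462 CPM), and overlap with the 2 mice of 0w.

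Macrophage levels differed between plates of the same mouse. In 7 mice (2 each of 0w, 2w and 11w, and 8w replicate 2), MP cells were on a myocyte-poor plate, where cardiomyocytes made up under 20% of cells, and on another plate. In this paired comparison, added after the data were seen, edgeR with the mouse as a block called 652 of 8674 genes (7.52%), and 4 of the 25 members tested, all higher on the myocyte-poor plates. Higher calls made up 2.28% of all genes. The MP cells compared were of different subclusters, since MP1 and MP2 made up 3.63% of the 551 cells on the myocyte-poor plates and 87.9% of the 380 on the others. On the myocyte-poor plates MP4 (28.7%) and MP3 (24.7%) led, so subcluster and plate class cannot be told apart here. Ccl6 averaged 3640 ± 1536 CPM on the myocyte-poor plates and 870.0 ± 449 CPM on the others, and was higher in 7 of 7 mice (log2 fold change 1.97 ± 0.38, adjusted p = 0.00243). Cxcl16, the anchored ligand of Cxcr6, averaged 366 against 125 CPM (1.41 ± 0.35, adjusted p = 0.0176, 7 of 7 mice). Pf4 averaged 3324 against 1153 CPM (1.38 ± 0.40, adjusted p = 0.0409, 7 of 7 mice). Cx3cr1 averaged 249 against 78.0 CPM (1.93 ± 0.53, adjusted p = 0.0284, 6 of 7 mice). The 7 cardiomyocyte markers summed to 2312 CPM in MP of the myocyte-poor plates and 32561 CPM in MP of the others, and their part in these differences was not tested.

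Ccl2, Ccl7, Ccl4 and Cxcl2 in MP did not pass in the same comparison, with log2 fold changes of 0.06 ± 0.35, -0.20 ± 0.36, 0.00 ± 0.30 and -0.39 ± 0.31. The call of Ccl6 was kept in all 10 alternatives, with adjusted p-values up to 0.0212. That of Cxcl16 was kept in 6 of 10 (up to 0.0656) and that of Cx3cr1 in 5 of 10 (up to 0.118). The call of Pf4 was kept in 3 of 10, and was lost with RLE factors (adjusted p = 0.0664), without mitochondrially encoded genes (0.0674) and in 5 of the 7 fits without 1 mouse (up to 0.208). With 1 mouse left out the count of called members fell to 1 without 0w replicate 1 (393 of 8605 genes called) or 8w replicate 2 (486 of 9200). It fell to 2 without 2w replicate 1 (412 of 8300) or 2w replicate 2 (426 of 8402). At 5w no mouse had MP cells on both classes: replicates 1 to 3 were on myocyte-poor plates and replicates 4 to 7 on the others, so plate class and mouse cannot be told apart there. Ccl12 in MP at 5w was at 4442, 1210 and 1292 CPM in the first 3 and at 258, 654, 382 and 83.4 CPM in the other 4.

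**Figure D4:**
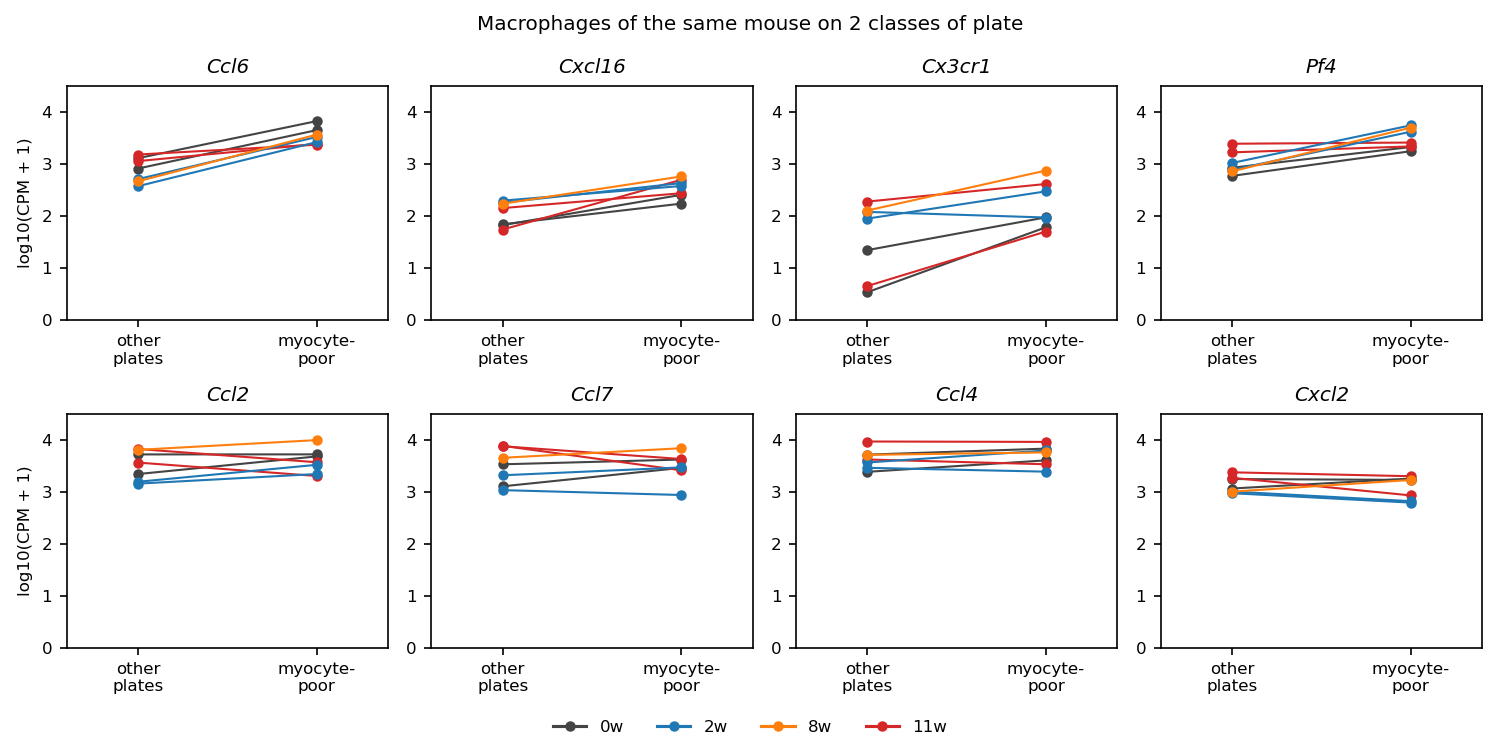
Levels in macrophages of the same mouse on myocyte-poor plates and on other plates (log10 of CPM + 1), 1 line per mouse, coloured by stage. Ccl6 is higher on the myocyte-poor plate in 7 of 7 mice, and Ccl2 in 5 of 7.

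In fibroblasts, 5w replicate 1 was the highest mouse for both Ccl2 and Cxcl1. Ccl2 in FB was at 828.6 and 2436 CPM at 0w, 3585 and 4059 CPM at 2w, 8810, 1038 and 1331 CPM at 5w, 2308, 5382 and 2291 CPM at 8w and 1095 and 1531 CPM at 11w. The 2w mice lay above both 0w mice, and the later stages overlapped with 0w. Cxcl1 in FB was at 1871 and 3151 CPM at 0w, 7057, 1263 and 1386 CPM at 5w and 1312 and 1766 CPM at 11w. Ccl7 in FB followed the same order of mice at 5w, with 8367, 679 and 1772 CPM.

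Cxcl12, Ccl11 and Cxcl14 in FB overlapped between 0w and the 5 mice of 8w and 11w. Cxcl12 in FB was at 116 and 74.9 CPM at 0w, 129 and 142 CPM at 2w and 59.5 and 79.5 CPM at 11w, with 8w replicate 1 highest at 473 CPM. Ccl11 in FB was at 81.4 and 86.7 CPM at 0w, 349, 155 and 4.94 CPM at 8w and 15.4 and 0.984 CPM at 11w. Cxcl14 in FB was at 332 and 163 CPM at 0w and at 376 and 98.2 CPM at 11w.

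Ackr3 in FB was at 125 and 229 CPM at 0w, 230, 134 and 397 CPM at 5w, 189, 105 and 33.6 CPM at 8w and 86.9 and 55.9 CPM at 11w. The log2 fold change of 8w and 11w against 5w was -1.40 ± 0.52 (adjusted p = 0.405), and only 8w replicate 1 lay above the lowest 5w mouse. Ackr2 in FB rested on few cells, with 97.8 CPM in 0w replicate 1 and 201 CPM in 5w replicate 3 against 0 to 19.9 CPM in the other 10 mice.

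In endothelial cells, Ccl2 was at 305 and 434 CPM at 0w and at 434 and 462 CPM at 11w, with 8w replicate 3 highest at 1348 CPM. Ccl7 in EC was at 612 and 421 CPM at 0w and 300 and 423 CPM at 11w, and its highest value, 2621 CPM in 5w replicate 3, came from 11 cells. Cxcl12 in EC was at 650 and 616 CPM at 0w, 537 and 695 CPM at 2w, 1879, 417 and 355 CPM at 8w and 496 and 197 CPM at 11w. Its range at 5w was 76.1 to 1466 CPM over 4 mice, and 5w and 8w spanned the 0w values while both 11w mice lay below both 0w mice. Ackr3 in EC was at 145 and 96.7 CPM at 0w and at 116 and 156 CPM at 11w, and Cx3cl1 in EC at 20.7 and 35.4 CPM at 0w and at 31.8 and 9.47 CPM at 11w, both with overlap.

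Ccl6 in EC came closest to the threshold of all members. It was at 579 and 380 CPM at 0w, 71.5 and 40.7 CPM at 2w, 208, 24.0, 0 and 4.01 CPM at 5w, 39.7, 26.1 and 20.02 CPM at 8w and 45.0 and 16.7 CPM at 11w. Both 0w mice lay above every later mouse, and the log2 fold change of 8w and 11w against 0w was -3.79 ± 1.02 (adjusted p = 0.0645). The adjusted p passed in 3 of 20 alternatives, with mice of at least 20 cells (0.0244), with no low-count filter (0.0185) and without 2w replicate 1 (0.0386), and reached 0.341 without 11w replicate 2. The class held different subclusters at each stage: EC1, EC2 and EC3 made up 69.4% of the 0w EC, against 0% to 3.29% of those at any later stage. The leading subcluster was EC5 in the 2w (60.8%), 5w (43.3%) and 8w mice (42.4%) and EC9 in the 11w mice (47.5%), so subcluster and stage cannot be told apart in EC. Against 0w, the fold change of Ccl6 was -2.76 ± 1.33 at 2w (adjusted p = 0.595) and -2.81 ± 1.05 at 5w (adjusted p = 0.352). The 7 macrophage markers ranged from 108 to 1205 CPM in EC, and their part in the level of Ccl6 there was not tested. At 0w nearly all EC were on plate B, with 708 cells there and 12 on plate A, so plate and stage cannot be told apart.

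Cxcl9 and Cxcl10 in EC were at higher levels in both 2w mice than in both 0w mice. Cxcl9 in EC was at 27.8 and 18.8 CPM at 0w and 406 and 121 CPM at 2w, and at 15.9 and 89.3 CPM at 11w. Cxcl10 in EC was at 10.6 and 8.08 CPM at 0w and at 69.3 and 167 CPM at 2w. One cell of EC9 held 1297 of the Cxcl10 UMIs of 2w replicate 2, 39.1% of those in EC, and without it that mouse was at 25.0 CPM. In 5w replicate 1, Cxcl9 was at 173 CPM and Cxcl10 at 141 CPM, within the range of the 2w mice. Against 0w, the 2w mice had log2 fold changes of 3.84 ± 1.47 for Cxcl9 (adjusted p = 0.484) and 3.97 ± 1.73 for Cxcl10 (adjusted p = 0.533). Of the 2 forms searched, the printed Cxcl10 stretch holds GAAANNGAAA and the Cxcl9 stretch holds neither. A part of this in the levels was not tested.

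Ccl5 in EC was at 2.13 and 4.97 CPM at 0w and at 146 and 4246 CPM at 2w, a log2 fold change of 9.56 ± 1.90 (adjusted p = 0.442). The higher 2w value is that of the 1 cell with 38357 UMIs, and without that mouse the fold change was 5.74 ± 2.10 (adjusted p = 0.813). Of 21 alternatives, 6 passed (DESeq2, no low-count filter, the replicate block, without plate H, without 8w replicate 2 and without 2w replicate 1), and all 6 include that cell. The fit without 2w replicate 1 leaves 1 mouse at 2w, which is assumed to vary like the other groups.

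Ccl21a in EC was at 280 and 258 CPM at 0w, 871 and 297 CPM at 2w, 326, 1953 and 1118 CPM at 8w and 2537 and 1505 CPM at 11w. The 5 mice of 8w and 11w lay above both 0w mice, with a log2 fold change of 2.74 ± 1.09 (adjusted p = 0.316). EC8 made up 1.5% and 1.25% of EC at 0w and 9.83% and 8.14% at 11w, and held 98.2% and 90.4% of the Ccl21a UMIs of EC at 11w. Without EC8, Ccl21a in EC was at 58.1 and 113 CPM at 0w and at 49.5 and 158 CPM at 11w, so those stages then overlapped. Cxcl16 in EC was at 40.6 and 61.5 CPM at 0w, 131, 50.4 and 488 CPM at 8w and 187 and 287 CPM at 11w (2.47 ± 1.12, adjusted p = 0.428), and 8w replicate 2 overlapped with 0w.

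**Figure D5:**
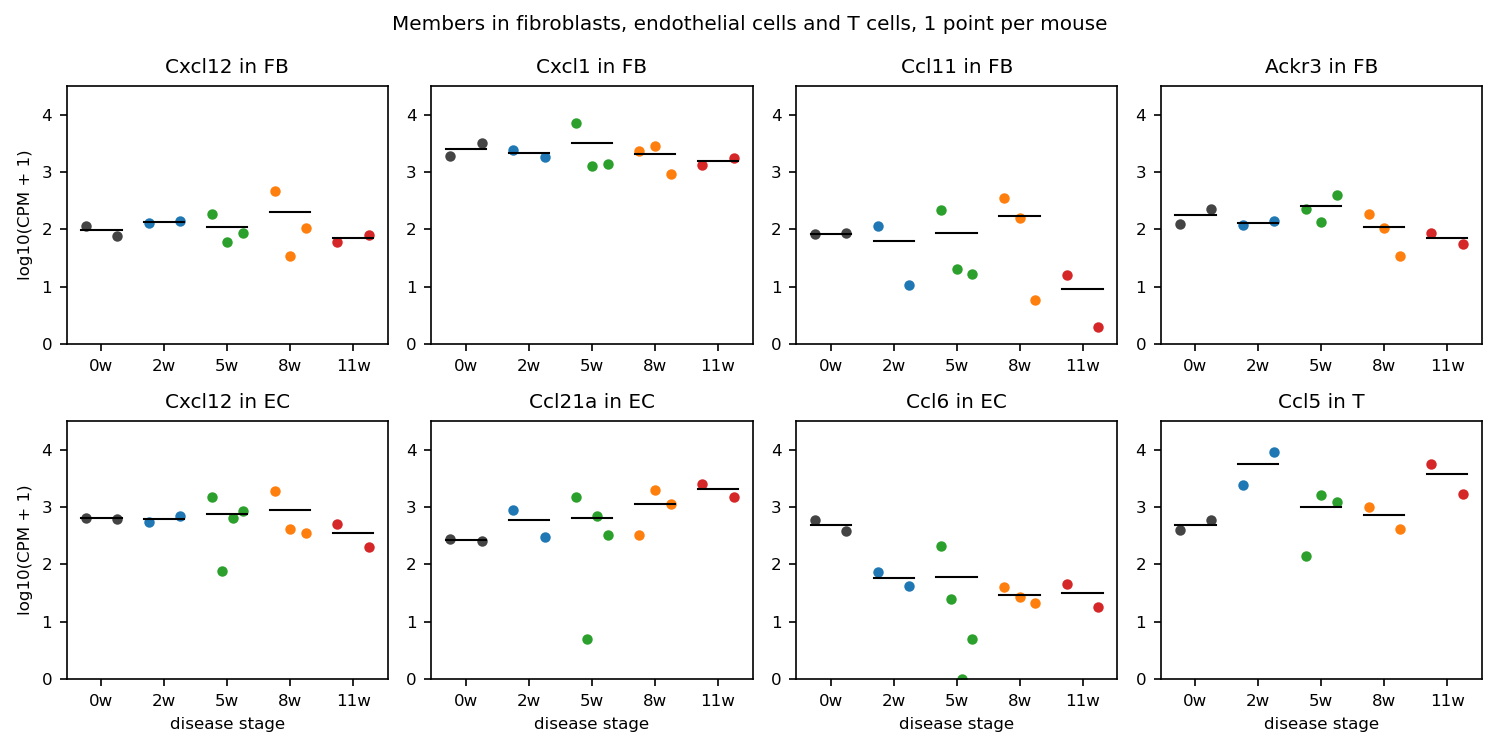
Levels of 8 pairs of member and type in fibroblasts, endothelial cells and T cells, 1 point per mouse and a bar at the stage mean, on a log10(CPM + 1) axis. Ccl6 in EC has both 0w mice (579 and 380 CPM) above every later mouse.

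In T cells, Ccl5 was at 395 and 590 CPM at 0w, 2422 and 8920 CPM at 2w, 141, 1599 and 1195 CPM at 5w, 999 and 419 CPM at 8w and 5704 and 1661 CPM at 11w. Both 2w mice lay above both 0w mice, with a log2 fold change of 3.66 ± 0.86 (adjusted p = 0.704). The fold change of 8w and 11w against 0w was 1.70 ± 0.73 (adjusted p = 0.351), beside a median of -0.82 over all genes tested in T, and 8w replicate 3 overlapped with 0w. Of the 90 cells of T4, which led for Ccl5, 32 were on plate D (2w).

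Ccr7 in T was at 11.6 and 53.4 CPM at 0w, 116 and 17.4 CPM at 2w, 4.35, 16.8 and 2.07 CPM at 5w, 115 and 125 CPM at 8w and 120 and 90.2 CPM at 11w. Every mouse of 8w and 11w lay above every 5w mouse, with a log2 fold change of 4.28 ± 1.38 (adjusted p = 0.190, and 0.00303 with DESeq2) beside a median of -0.83 over all genes. The value of 125 CPM is that of 8w replicate 3, whose T markers were low and of whose 13 T cells 11 were T3. In 2w replicate 1, 1 T3 cell held 254 Ccr7 UMIs. T3, which led for Ccr7, made up 53.3% of T at 8w, 45.2% at 11w and 12.5% at 5w. Its part in this difference was not tested. Ccl4 in T was at 112, 43.8 and 90.9 CPM at 5w, 1194 and 19.3 CPM at 8w and 1346 and 63.5 CPM at 11w (3.18 ± 1.01, adjusted p = 0.190). Without 8w replicate 3, whose T markers were low, the fold change of Ccl4 in T was 3.82 ± 0.83 and passed (adjusted p = 0.0481), in a fit that called 0.255% of all genes. Ccl4 passed in 3 of 19 alternatives, with adjusted p-values up to 0.576 over them. Cxcr3 in T was at 5.79 and 3.22 CPM at 0w and at 7.09 and 1.67 CPM at 11w, and Cxcr6 in T at 1.29 and 0.268 CPM at 0w and at 14.2 and 6.68 CPM at 11w, with 4 or fewer UMIs in each of the 11w mice.

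Ccl2, Ccl7, Ccl21a and Cxcl1 in T were each far higher in 1 mouse than in the rest. Ccl2 in T was at 1113 CPM in 5w replicate 1 and from 6.73 to 320 CPM in the other 10 mice. Ccl7 in T was at 208 and 1812 CPM at 0w, of which 1 cell of replicate 2 held 3950 UMIs, and at 91.7 and 71.5 CPM at 2w. Its log2 fold changes against 0w were -3.43 ± 1.19 for the 2w mice, -2.57 ± 1.00 for 5w and -3.14 ± 0.92 for 8w with 11w, with adjusted p-values of 0.704, 0.543 and 0.291. Ccl21a in T was at 850 CPM in 11w replicate 1 (120 UMIs, 100 of them in 1 cell), against 3.86 to 63.9 CPM in the other 10 mice. Its fold change of 8w and 11w was 4.77 ± 1.64 against 0w (adjusted p = 0.293) and 2.93 ± 1.25 against 5w (adjusted p = 0.262). Ccr9 in T was at 220.5 and 135 CPM at 0w, 15.9 and 4.82 CPM at 8w and 120 and 1.67 CPM at 11w (-2.88 ± 1.31, adjusted p = 0.372). Cxcl1 in T was at 2626 CPM in 5w replicate 1, where 1 cell held 2871 UMIs, and at 8.42 and 20.7 CPM in the other 5w mice. The fold change of 8w and 11w against 5w was -3.15 ± 1.31 (adjusted p = 0.265), and 3.04 without that mouse (adjusted p = 0.220).

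In cardiomyocytes, Cxcl12 was at 141 and 75.9 CPM at 0w, 116 and 155 CPM at 2w, 617, 98.8 and 207 CPM at 8w and 220 and 42.6 CPM at 11w. The 5 mice of 5w were at 267, 338, 332, 280.0 and 327 CPM, all above both 0w mice, with a log2 fold change of 1.53 ± 0.65 (adjusted p = 0.709).

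Cxcl1 in CM was at 152 and 313 CPM at 0w, 339 and 112 CPM at 2w, 125, 166 and 240 CPM at 8w and 37.5 and 83.7 CPM at 11w, with 60.4 to 666 CPM at 5w. The inflammatory ligands in CM turned on 5w replicate 1. Of its 54 CM, 46 were CM5, against 1 of 561 in 5w replicate 4 and 1 of 602 in replicate 5. Its plate H held 14.0% cardiomyocytes, against 93.6% and 93.8% on plates F and G. Mouse, subcluster and plate class therefore cannot be told apart in CM at 5w. Ccl2 in CM was at 233 and 417 CPM at 0w, and at 1514 CPM in 5w replicate 1 against 72.8, 31.3, 22.7 and 57.9 CPM in the other 5w mice. Ccl7 in CM was at 1624 CPM in that mouse and at 18.9 to 110 CPM in the other 4, and Ccl4 in CM at 853 CPM and at 9.15 to 39.0 CPM. The CM sum of 5w replicate 1 had 2494 CPM of macrophage markers, against 66.0 to 118 CPM in the other 5w mice and 219 and 276 CPM at 0w. Without that mouse 0.0834% of all genes (13 genes) were called at 5w against 0w, 3 of them members: Ccl12 (-5.37 ± 0.82, adjusted p = 0.0349), Ccl3 (-4.71 ± 0.65, adjusted p = 0.0258) and Cxcl2 (-3.14 ± 0.45, adjusted p = 0.0258). Ccl12 in CM was at 28.5 and 47.7 CPM at 0w and at 0.162 to 1.57 CPM in those 4 mice. Ccl12 (5.17 ± 0.76, adjusted p = 0.0120) and Ccl3 (3.55 ± 0.58, adjusted p = 0.0181) were also called at 8w and 11w against 5w without that mouse, where 0.449% of all genes (70) were called. The 4 mice were on plates F and G, where Ccl2 was found in the smallest shares of CM. The part of the plate or of the subclusters in these calls was not tested.

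Of the pathway lists chosen alongside the members, none had a gene past the threshold in any type and contrast by edgeR. The lists were 9 other chemokine ligands, 11 other chemokine receptors, 28 genes of receptor signalling, 10 proteases that cut chemokines, 16 genes of NF-kappaB and inflammatory cytokines, 16 interferon-induced regulators and 23 immediate early genes known to rise during tissue dissociation, as found in the matrix. The median log2 fold change of the interferon-induced regulators ranged from -0.60 to 1.58 over the 20 contrasts, and that of the NF-kappaB list from -0.41 to 0.82. The 23 immediate early genes summed to 6795 to 19771 CPM in MP, 5533 to 12302 CPM in FB and 2211 to 6872 CPM in CM. Their part in the levels of Ccl2, Ccl4 and Cxcl1 was not tested. In bulk sums such as these, fewer expressing cells and less RNA per cell cannot be told apart.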

How the data were processed

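The deposited matrix holds raw UMI counts, which are whole and carry no normalization by the authors. Tools named in the submitters' processing notes are featureCounts, Subread 1.4.6-p1 and STAR 2.5.2b, with GRCh37 and mm10 as builds. Which gene annotation served, whether strand was used and how UMIs were collapsed is not given in the sources used here. Per the labels' protocols, tissue was digested in 1 of 2 ways, to enrich myocytes or other cells, and the labels do not tie a digestion to a plate. Types, subclusters and mice are those of the authors' deposited annotation; 3 cells without a type were left out, no further filter was applied and doublets were not called. Mice gave 3441317 to 121599183 UMIs, with a median of 41573.5 per cell, of which 56.0% overall came from 34 mitochondrially encoded genes. Levels (CPM) use non-mitochondrial UMIs. A cell's non-mitochondrial total equalled the UMI number in the authors' annotation for 73.9% of cells; on plates F, G and K its ratio to that number was 0.545, 0.805 and 0.481. Intervals and shares cover counting error only.

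Counts were summed per mouse and type (at least 10 cells; 14 mice for CM, 13 EC, 12 FB, 16 MP, 11 T) and fitted with edgeR 4.0.16 in R 4.3.3 (filterByExpr, TMM, robust glmQLFit, two-sided glmQLFTest, no covariate), with Benjamini-Hochberg adjustment over all genes tested and a threshold of 0.05. The script was tested on simulated data. The labels name each mouse as an individual, and p-values measure the spread between these mice. Alternatives were RLE factors, DESeq2 1.42.0, no low-count filter, no mitochondrial genes, 20 cells, the replicate number as a block, and each mouse left out. Members and lists were chosen with earlier results of these data known. Described with values per mouse are the 5 highest members of each type, those past the threshold, and a fixed set (Ccl2, Ccl6, Ccl9, Ccl24, Pf4 and Cx3cr1 in MP; Cxcl12, Cxcl1, Ccl11 and Cxcl14 in FB; Cxcl12, Cx3cl1 and Ackr3 in EC; Ccl5, Cxcr3, Cxcr6 and Ccr7 in T); fold changes follow the rule in the text, and other members were added after their values were seen.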

Additional observations from a re-analysis of the deposited data

Results flagged for a closer look

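Among 20 sets of a named member at 5w (the stage with 4 or more mice), 5 had a mouse far from the others by Dixon's criterion, which flags about 1 in 20 by chance. All 5 were 5w replicate 1, the 5w mouse of plate H, of whose 54 CM 46 were CM5. In CM its Ccl2 was 1514 CPM (next highest 72.8 CPM), its Ccl4 853 CPM (next 39.0 CPM) and its Ccl7 1624 CPM (next 110 CPM). In EC its Ccl2 was 696 CPM (next 60.2 CPM), and in MP its Ccl7 was 9462 CPM (next 4194 CPM). The 8w mouse of the same plate, of whose 123 CM 67 were CM5, had 268 CPM of Ccl2 in CM.

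Among 93 pairs of types looked at for opposite directions, those flagged were of Ccl2 at 2w, where each stage had 2 mice. In FB both 2w mice were above both 0w mice, the lower of them at 3585 CPM, while in CM, MP and T both 2w mice were below, the higher of them at 177 CPM, 2770 CPM and 155 CPM. Separation of 2 mice from 2 arises often by chance, and this difference between types was not tested.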

How the results depend on the processing

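The 20 counts of called members, all 0, were recomputed under 420 alternatives, of which 386 also gave 0 and 34 gave 1 or more; the cause was not tested. DESeq2 called 1 member in CM at 8w and 11w against 0w and 3 against 5w, 2 in EC at 2w, 1 in FB at 5w, 1 in FB at 8w and 11w against 0w, 1 in T at 2w, 1 in T at 8w and 11w against 0w and 2 against 5w. With no low-count filter the calls were 1 in CM at 2w, 1 in CM at 5w and 4 in CM at 8w and 11w against 5w, 1 in EC at 2w and 2 in EC at 8w and 11w against 0w, 1 in FB at 2w, 1 in FB at 8w and 11w against 0w and 2 against 5w, and 1 in T at 2w and 2 in T at 8w and 11w against 5w. With at least 20 cells per mouse, 1 member was called in EC at 8w and 11w against 0w (0.188% of all genes). In the contrasts with a called member, the share of all genes called was 0.00692% to 1.53% with no low-count filter and 0.00688% to 2.45% with the replicate block.

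Among settings added after the data were seen, leaving out plate H gave 4 in CM at 5w (0.544% of all genes called), 5 in CM at 8w and 11w against 5w (2.72%), 1 in EC at 2w (0.00737%), 1 in T at 2w (0.0218%) and 2 in T at 5w (0.268%). Cells of myocyte-poor plates only gave 1 in T at 8w and 11w against 5w (0.152%). With 1 mouse left out and at least 2 per stage kept, CM at 5w gave 0 to 3 called members. Without 5w replicate 1 the share of all genes called there was 0.0834%. CM at 8w and 11w against 5w gave 0 to 2 (0.449% without that mouse). EC at 2w gave 0 to 1 (0.00671% without 8w replicate 2). With 1 mouse left out, the macrophage plate comparison gave 1 to 4 called members. It called 393 of 8605 genes without 0w replicate 1 and 736 of 8937 without 11w replicate 2. Cxcl1 in T at 8w and 11w against 5w was -3.15, ranged from -3.76 to 3.04 with 1 mouse left out (3.04 without 5w replicate 1) and was 3.37 without plate H.

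Over all genes, DESeq2 called 1 to 534 in a contrast, where edgeR called 0 to 111: 474 against 3 in CM and 534 against 30 in T at 8w and 11w against 5w, 439 against 0 in FB at 2w, and 150 against 111 in EC at 8w and 11w against 0w. The replicate numbers do not pair the mice, whose labels name different individuals. As a block, the replicate number gave 2 called members in CM at 8w and 11w against 5w, 1 in EC at 2w and 1 in T at 2w, and 0 in the other contrasts. With 2 mice at 0w, 2w and 11w, and few UMIs for receptors, small differences were not detectable at this depth. Large ones did not pass by edgeR either. Ccl5 in T at 2w against 0w had a log2 fold change of 3.66 (adjusted p = 0.704), with 35819 UMIs at 2w. For Ccr7 in T at 8w and 11w against 5w it was 4.28 (adjusted p = 0.190). The 0 calls therefore do not exclude changes of that size.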
